A study of Mus musculus with 12 samples.

Results

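S100a8 and S100a9 are the genes of the subunits of calprotectin. They are the 2 rows, of 34745 genes in the deposited expression table, that carry these gene names, and they were picked because of their share of the library counts and their level across the groups. Their levels by group are therefore given as a description without a test. RNA of total femoral bone marrow cells was sequenced from 12 male mice of the outbred ICR strain, 3 mice in each of 4 groups, after 1 week of oral dosing. Mice of the normal group had saline in place of both drug and toxin. In the other 3 groups leucopenia was induced with cyclophosphamide, an alkylating agent, injected at 80 mg/kg/day on days 5 to 7. These mice had saline (model), the herbal Qi-Jing-Sheng-Bai granule at 3 g/kg/day (QJSB), or the leucocyte-raising drug leucogen at 20 mg/kg/day (leucogen). There was no group that received a drug without cyclophosphamide. Bulk RNA does not tell fewer cells of a type from less RNA per cell, and this holds for every level below.

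Calprotectin is a calcium-binding complex of S100A8 with S100A9. It fills the cytosol of neutrophils, is also made by monocytes, and binds zinc and manganese so that microbes cannot use them. When released it acts on receptors such as Toll-like receptor 4 and RAGE and promotes inflammation, and inside the cell it carries arachidonic acid and assists the phagocyte NADPH oxidase. In the marrow its RNA accumulates as granulocytes mature from promyelocytes to neutrophils, and its genes are known targets of C/EBP factors and of PU.1.

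Both genes lie in the S100 cluster of chromosome 3. S100a8 (ENSMUSG00000056054) occupies chr3:90668978-90670035 on the plus strand of GRCm38 and S100a9 (ENSMUSG00000056071) chr3:90692632-90695721 on the minus strand. The 22596 bases between them hold no other gene of the GENCODE M21 annotation, and S100a7a lies beyond S100a8. The protein-coding transcript S100a8-201 has 3 exons and 486 spliced bases, and S100a9-201 has 3 exons and 512. The stretches before the first exons are shown because the marrow levels of the 2 genes ran together, with the letters that match a motif of a known regulator in capitals. They come from RefSeq on GRCm38.p6, in which both genes were found, and are written 5′ to 3′ on the strand of the gene.
S100a8, chr3:90668821-90668977: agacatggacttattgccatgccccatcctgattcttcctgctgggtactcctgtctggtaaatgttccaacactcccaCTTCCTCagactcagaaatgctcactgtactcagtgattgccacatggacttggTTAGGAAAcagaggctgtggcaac
S100a9, chr3:90695722-90695971: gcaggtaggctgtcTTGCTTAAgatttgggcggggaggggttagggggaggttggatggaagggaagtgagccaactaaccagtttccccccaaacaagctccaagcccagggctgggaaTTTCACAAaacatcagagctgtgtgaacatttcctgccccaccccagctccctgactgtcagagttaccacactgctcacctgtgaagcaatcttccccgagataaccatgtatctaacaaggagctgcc
The S100a8 stretch of 157 bases stops where GENCODE starts the first exon, 93 bases before the start in RefSeq. That of S100a9 has 250 bases and ends at the start of the gene, which is the same in both annotations. This is the start of another protein-coding transcript, S100a9-202, at chr3:90695721. The first exon of S100a9-201 starts further on, at chr3:90695711.

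Motifs were searched on both strands of the 300 bases from 250 before to 50 after each RefSeq start, in 32851 promoters. The core of C/EBP sites, TTNNGNAA, was found in 40.7% of all promoters. It occurred once before S100a8, as TTAGGAAA at bases -117 to -110 from the start, and at 2 places before S100a9, as TTGCTTAA at -236 to -229 and TTTCACAA at -130 to -123, both in reverse orientation. The PU.1 core GAGGAAG was in 13.6% of promoters. It lay before S100a8 in reverse, as CTTCCTC at -171 to -165, and its letters were not in the S100a9 window. TATAAA, also in 13.6% of promoters, stood at -30 to -25 of S100a8, inside the exon that GENCODE draws, and at bases 1 to 6 of S100a9. No matches overlapped. A match is a run of letters and says nothing of binding.

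Libraries held from 11172547 to 18545198 counts, and TMM factors, which scale libraries on the assumption that most genes do not change, ran from 0.932 to 1.13. No 2 mice of a group were as alike as counting noise alone would make them: chi-square divided by its degrees of freedom was 10.9 to 107. The columns of the table are headed Blank, Model, Stilbene and Positive. Blank was read as normal, Positive as leucogen and Stilbene as QJSB from the meaning of the words and by elimination, a reading that was then compared with listed group means, so that it rests in part on values. By fixed marker lists the samples were marrow: genes of late neutrophils, promyelocytes, erythroid cells and B cells were all read in the normal libraries. B cell markers summed to 1797 ± 17.7 CPM (counts divided by the TMM-scaled library size; SD, n = 3) in normal and to 64.0, 17.2 and 17.2 CPM in model, QJSB and leucogen, where Ms4a1 had no count in 5 of the 9 libraries.

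S100a8 was among the most abundant RNAs of every library. Its counts were 109665, 114379 and 86878 in normal 1 to 3, or 0.774%, 0.769% and 0.593% of the library. In model they were 29878, 122799 and 77331, or 0.194%, 0.925% and 0.457%. The model libraries thus lay on both sides of normal, with model 1 lowest of all 12. In QJSB the counts were 43874, 223929 and 159716, which is 0.256%, 1.21% and 0.953% of the library. QJSB 1 was close to model 1, and the other two lay above every normal and model library. In leucogen they were 298289, 350502 and 269736, or 2.36%, 2.37% and 2.41%. The leucogen libraries stood apart from the 9 others, and S100a8 had more counts than any other gene in each of them. It ranked 3, 4 and 5 by counts in normal, 18, 4 and 7 in model and 11, 2 and 3 in QJSB.

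S100a9 followed the same course at a lower count. It had 60929, 68654 and 48426 counts in normal, 0.430%, 0.461% and 0.330% of the library. In model it had 18458, 69338 and 40162 (0.120%, 0.522% and 0.237%). In QJSB it had 31415, 108357 and 96538 (0.183%, 0.584% and 0.576%). Model 1 and QJSB 1 were again lowest, and the remaining libraries of these groups reached from below to above the normal range. In leucogen it had 138367, 186326 and 175107 counts (1.10%, 1.26% and 1.57%), again above the other 9 libraries, and ranked 5, 4 and 2 by counts. Its ranks were 9, 8 and 11 in normal, 38, 7 and 17 in model and 22, 6 and 6 in QJSB. Counting error was small beside the spread between mice: the 95% Wilson intervals of the shares, which cover counting error only, were at most 0.0229 percentage points wide.

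**Figure D1:**
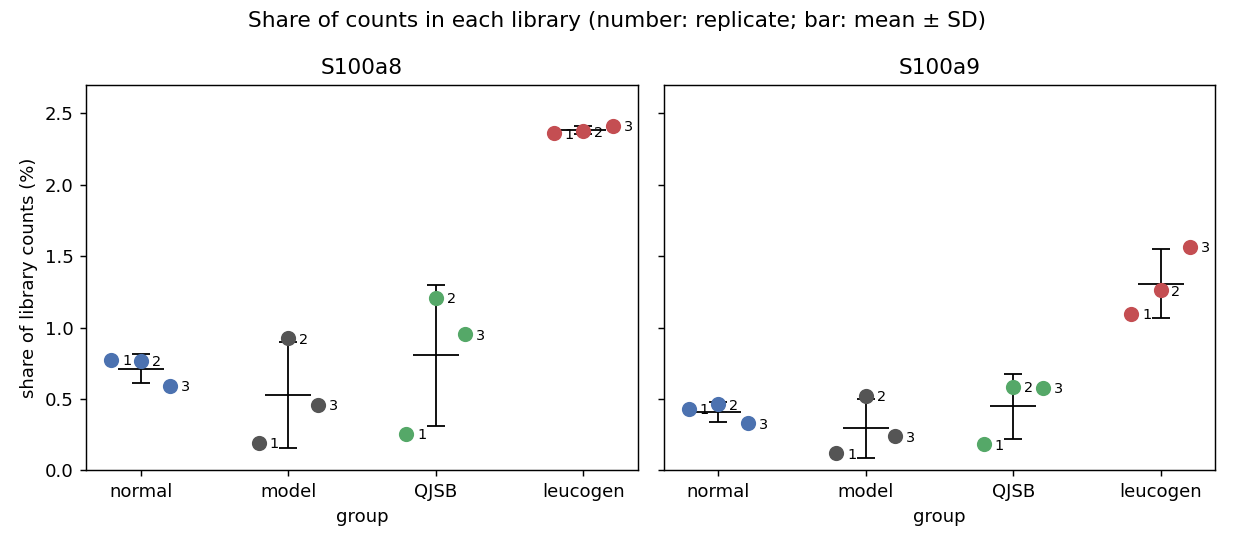
Share of all library counts (%, linear axis from 0) held by S100a8 (left) and S100a9 (right) in each of the 12 libraries. Points are mice with their replicate number, and bars give the mean and SD of 3. The leucogen libraries, 2.36% to 2.41% for S100a8 and 1.10% to 1.57% for S100a9, lie above all others, and model 1 and QJSB 1 lie lowest.

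Together the 2 genes took up 3.69% ± 0.267 (SD, n = 3) of the counts in leucogen, against 1.12% ± 0.171 in normal, 0.818% ± 0.577 in model and 1.25% ± 0.717 in QJSB. No other gene gained as large a share between model and leucogen: S100a8 was first of all genes with 1.86 percentage points and S100a9 second with 1.01, before Lyz2, the lysozyme gene of myeloid cells, with 0.820 and Anxa1, which encodes annexin A1, with 0.674. They were also first and second between normal and leucogen, with 1.67 and 0.901 percentage points. From model to QJSB S100a8 was first with 0.280 percentage points, and S100a9 was the fifth with 0.155, after Chil3, Ngp and Ltf, which are genes of maturing neutrophils. These ranks reuse the shares on which the 2 genes were picked, and a gain in percentage points favours abundant genes, so the ranks only describe. The gain of a mean hides the spread, since QJSB 1 held less of either gene than model 2 and model 3. From normal to model the mean shares differed by -0.187 and -0.114 percentage points.

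In CPM, S100a8 stood at 7264 ± 1102 (SD, n = 3) in normal, 4966 ± 3519 in model, 8351 ± 5437 in QJSB and 25005 ± 1156 in leucogen. S100a9 stood at 4156 ± 722, 2767 ± 1965, 4614 ± 2542 and 13773 ± 2918 CPM. In order of the mean both genes ran from model through normal and QJSB to leucogen. The first 3 of these groups overlapped each other, and only leucogen was apart from its neighbour in the order. Mice differed most in model and QJSB: the highest S100a8 library held 5.05 times the lowest in model and 5.50 times in QJSB, against 1.33 in normal and 1.09 in leucogen. For S100a9 these ratios were 4.61 and 3.72 in model and QJSB and 1.41 and 1.53 in normal and leucogen.

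Model against normal asks what cyclophosphamide alone does to the marrow. The log2 fold change of the edgeR fit was -0.54 (SE 0.53) for S100a8 and -0.58 (SE 0.51) for S100a9, beside a median of 0.02 over the 14752 genes fitted. The values rested on single mice: without model 1 they were -0.13 and -0.18, and without model 2 they were -1.21 and -1.28. The libraries of the 2 groups overlapped for both genes.

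QJSB against model asks what the granule adds. The log2 fold change was 0.73 (SE 0.72) for S100a8 and 0.72 (SE 0.65) for S100a9, beside a median of -0.02 over 14486 genes. Centred on group means, libraries of model and QJSB with the same replicate number correlated at 0.426, 0.123 and 0.107. No label pairs these mice, so a block on the number is taken from these data alone. With the number as a block the values were 0.70 (SE 0.23) and 0.77 (SE 0.24), so the estimates were alike and their errors smaller. The smaller errors do not show that the mice were paired. Library by library, QJSB minus model was 0.45, 0.57 and 1.12 on the log2 CPM scale for S100a8, and 0.66, 0.35 and 1.34 for S100a9, for numbers 1 to 3. Across numbers the groups overlapped. Leaving out model 2 gave 1.42 and 1.43, leaving out QJSB 2 gave 0.28 and 0.44, and leaving out model 1 gave 0.32 and 0.33. Leaving out QJSB 1 gave 1.17 and 1.12.

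Leucogen against model asks the same of the reference drug, with the same model libraries. Here the log2 fold change was 2.34 (SE 0.52) for S100a8 and 2.32 (SE 0.52) for S100a9, beside a median of -0.05 over 14184 genes, and the mean CPM were 5.03 and 4.98 times those of model. The lowest leucogen library had 2.72 times the S100a8 and 2.24 times the S100a9 of the highest model library. Leaving out a library gave values from 1.94, without model 1, to 3.04 and 3.06, without model 2. Against normal the log2 fold change was 1.80 (SE 0.13) and 1.75 (SE 0.18), and against QJSB 1.60 (SE 0.54) and 1.60 (SE 0.47). QJSB against normal gave 0.21 (SE 0.53) and 0.16 (SE 0.44), with signs that turned without QJSB 2 (-0.25 and -0.12), for S100a9 also without QJSB 3 (-0.05), and once replicate numbers were blocked (-0.05 and -0.02).

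The ratio of the 2 counts was not used to pick the genes and needs no scaling between libraries. Counts of S100a8 per count of S100a9 were 1.75 ± 0.0757 (SD, n = 3) in normal, 1.77 ± 0.153 in model, 1.71 ± 0.338 in QJSB and 1.86 ± 0.308 in leucogen. Over the 12 libraries the ratio ran from 1.40 in QJSB 1 to 2.16 in leucogen 1, while S100a8 itself ran from 1725 to 25898 CPM. A difference between the groups was not detected (exact permutation test of the log2 ratio over 369600 assignments of the libraries, two-sided, p = 0.882). With 3 mice a group this does not show that the ratio is the same. Leaving out QJSB 2 gave an exact p = 0.389, the lowest value with a library left out. Leucogen 1 and leucogen 3 had 2.16 and 1.54 although their S100a8 shares were nearly alike.

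**Figure D2:**
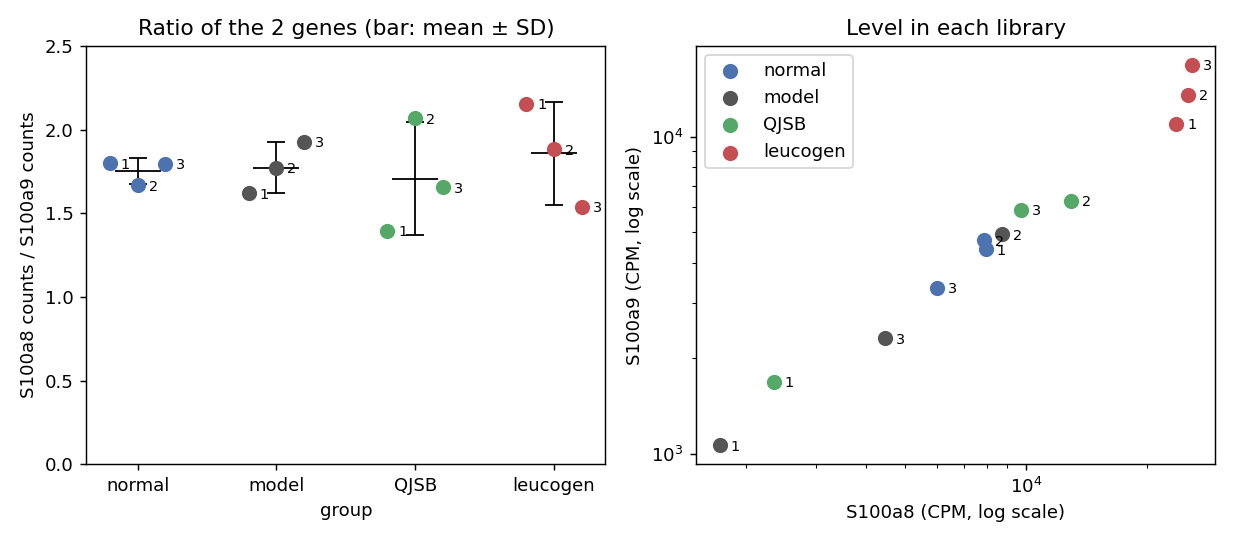
Left: counts of S100a8 per count of S100a9 in each library (linear axis from 0), with the mean and SD of 3 mice a group. Right: S100a9 against S100a8 in CPM, both axes logarithmic, a point a mouse with its replicate number. The ratios lie between 1.40 and 2.16 in all 4 groups while S100a8 spans 1725 to 25898 CPM.

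Per base of the spliced RNA, S100a8 exceeded S100a9 in all 12 libraries, with a mean ratio of 1.87 ± 0.228 (SD, n = 12) and a range from 1.47 to 2.27. The deposited FPKM (fragments scaled by gene length and library size) gave a lower ratio, 1.31 ± 0.160 (SD, n = 12). The difference lies in the lengths: the FPKM divide by 984 bases for S100a8 and 728 for S100a9, the summed lengths of all distinct annotated exons, in which overlapping exons are counted more than once. These are 2.02 and 1.42 times the spliced lengths. The same sum matched, within 0.5%, 66.5% of 10140 genes with several transcripts, and the union of exons 0.986%. Fold changes within a gene are not affected. In these FPKM S100a8 averaged 7235 ± 1050 (SD, n = 3) in normal, 5338 ± 3761 in model, 8186 ± 5007 in QJSB and 24217 ± 283 in leucogen. It had the highest FPKM of all genes in 9 of the libraries, the exceptions being model 1 (rank 7), model 3 (rank 3) and QJSB 1 (rank 5). S100a9 averaged 5595 ± 941, 4027 ± 2841, 6152 ± 3149 and 17968 ± 3289 FPKM and was second in every leucogen library.

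As a sum, markers of late neutrophils had the same order of group means as the pair. The summed CPM of 15 marker genes (Camp, Ngp, Ltf, Mmp8, Mmp9, Cxcr2 and others) was 16147 ± 237 (SD, n = 3) in normal, 12310 ± 5393 in model, 23579 ± 14167 in QJSB and 36431 ± 5439 in leucogen. Model 1 and QJSB 1, lowest for calprotectin, were also lowest here, with 6778 and 7226 CPM. They differed in other markers too. Their stroma and endothelium markers summed to 823 and 968 CPM, the highest of all libraries. Model 1 also had the highest erythroid and B cell sums of the libraries given cyclophosphamide, 1813 and 133 CPM. The part of these differences in the calprotectin values was not tested. Of the 15 genes, 5 fell from normal to model (percent of all genes called in that comparison: 35.1%, 19.0% lower), 11 rose from model to leucogen (23.1% of all genes called, 11.6% higher) and 11 rose from normal to leucogen (37.7% called, 17.8% higher). A call is an edgeR adjusted p under 0.05 with a fold change past 1.5 in either direction. Single genes differed: 4 of the 15 had a log2 fold change above 0 from normal to model, and 12 from normal to leucogen. From QJSB to leucogen 14 were above 0, with a median of 0.86. Of these none was called by edgeR (24.6% of all genes called), 3 by DESeq2 and 2 by limma. Between model and QJSB no gene was called by edgeR, of the 15 or of all 14486 (0%), while 1 of the 15 and 723 of all had an unadjusted p under 0.05. DESeq2 called 8 genes, none of them among the 15, and limma on FPKM called none. In DESeq2 5 of the 15 and 907 of all 21762 genes had an unadjusted p under 0.05. All 15 edgeR values were above 0, with a median log2 fold change of 1.13 beside -0.02 over all genes. These values come from the same mice and are not independent. The fit blocked on replicate number rests on pairs taken from these data alone. In it 18 genes were called, among them Ltf, Ngp and Cxcr2 (log2 fold change 1.41, 1.42 and 1.21, each edgeR adjusted p = 0.0378). These markers were chosen with earlier results known, and their part in the calprotectin values was not tested.

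Calprotectin was not a fixed share of this marker sum. S100a8 per unit of the sum was 0.450 ± 0.0690 (SD, n = 3) in normal, 0.368 ± 0.121 in model, 0.347 ± 0.0499 in QJSB and 0.694 ± 0.0766 in leucogen, where the lowest library (0.633) lay above the highest elsewhere (0.496). S100a9 gave 0.258 ± 0.0462, 0.207 ± 0.0646, 0.205 ± 0.0246 and 0.376 ± 0.0301, with 0.356 the lowest in leucogen and 0.296 the highest elsewhere. Since S100a8 and S100a9 were chosen on these libraries, no test was made. The sum of 9 promyelocyte markers, genes of the primary granules such as Mpo and Elane, went another way, from 971 ± 113 CPM (SD, n = 3) in normal to 8038 ± 1665 in model and 9031 ± 500 in QJSB, with 4246 ± 569 in leucogen. All 9 rose from normal to model (16.1% of all genes higher), and 7 fell from model to leucogen (11.5% of all genes lower). S100a8 per unit of that sum was 7.48 ± 0.756 in normal, 0.646 ± 0.534 in model, 0.938 ± 0.612 in QJSB and 5.96 ± 0.883 in leucogen. Monocyte markers, whose cells also make calprotectin, summed to 1202 ± 51.6, 2947 ± 768, 2193 ± 394 and 2049 ± 257 CPM in the 4 groups.

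**Figure D3:**
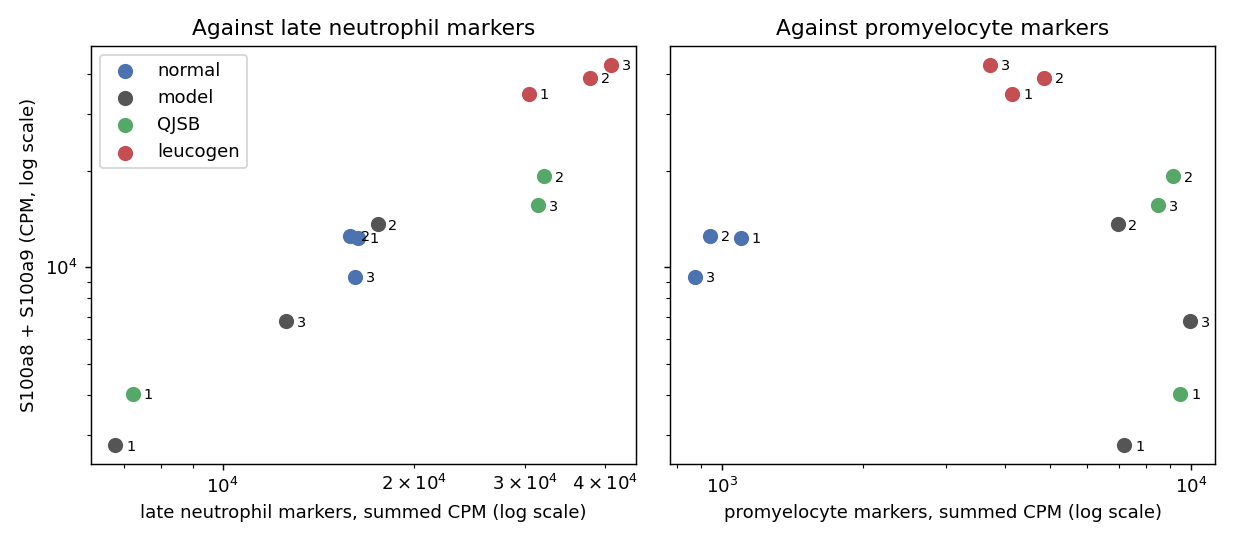
Summed CPM of S100a8 and S100a9 in each library against the summed CPM of 15 late neutrophil markers (left) and 9 promyelocyte markers (right), all axes logarithmic, a point a mouse with its replicate number. Leucogen libraries are highest on both axes of the left panel but for QJSB 2 and QJSB 3, whose marker sums of 32137 and 31374 CPM exceed the 30389 of leucogen 1 with less calprotectin.

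The other S100 genes had far lower CPM, which are not scaled for gene length, than S100a8 and S100a9. Of 16 listed, 7 had counts enough to be tested in model against normal, leucogen against model and leucogen against normal, and 1 rose and 1 fell (16.1% of all genes higher, 19.0% lower), 2 rose (11.6% higher), and 4 rose (17.8% higher) in these comparisons. From normal to QJSB 1 of 8 rose, S100a1, and 2 fell, S100a7a and S100a10 (37.9% of all genes called, 18.0% higher and 19.9% lower), the last with an edgeR adjusted p = 0.0468 that reached 0.15 with a library left out (lost without QJSB 2, QJSB 3, normal 1 or normal 2). From QJSB to leucogen 1 of 7 was called, S100a7a, which was higher (11.7% of all genes higher; lost without QJSB 3 or any leucogen library, adjusted p up to 0.0562). In the first 3 comparisons the median log2 fold changes of the 7 were 0.19, 0.29 and 0.74, beside 0.02, -0.05 and -0.01 over all genes. No S100 gene was called between model and QJSB (edgeR, 1 of 7 with an unadjusted p under 0.05; none by DESeq2 or limma). S100a7l2 was not found by that name, S100g and S100z had no count, and S100a2, S100a3, S100a5, S100a14 and S100b had under 1 CPM in every library. S100a16, also under 1 CPM, was tested against model in QJSB, where its log2 fold change was 1.47 (edgeR adjusted p = 0.767).

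S100a7a, the psoriasin homologue next to S100a8, was a rare RNA. It had 34, 65 and 51 counts in normal, 3, 5 and 6 in model, 1, 11 and 5 in QJSB and 27, 31 and 18 in leucogen. Normal and leucogen libraries were thus both above all model and QJSB libraries. It fell from normal to model by 3.55 on the log2 scale (SE 0.43, edgeR adjusted p = 0.00038) and was higher in leucogen than in model by 2.79 (SE 0.44, adjusted p = 0.00403), both of which held with each library left out. Against normal leucogen was at -0.74 (adjusted p = 0.0582), where both calprotectin genes were higher in leucogen.

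S100a1, a regulator of calcium handling in muscle, rose after cyclophosphamide in all groups. It had 12.6, 12.4 and 12.6 CPM in normal and 32.3 to 58.3 CPM in the 9 other libraries. The log2 fold change was 1.84 (SE 0.20, edgeR adjusted p = 0.000241) in model and 2.01 (SE 0.12, adjusted p = 5.91e-07) in leucogen against normal, and 0.17 (SE 0.20, adjusted p = 0.56) between leucogen and model. S100a11 and S100a6 encode widely expressed calcium-binding proteins. S100a11 had 221, 365 and 277 CPM in leucogen and 137, 204 and 152 in model. It was higher in leucogen than in model by 0.82 (SE 0.21, adjusted p = 0.0234), a call lost without leucogen 2, leucogen 3, model 1 or model 3 (adjusted p up to 0.0766), and than in normal by 0.74 (SE 0.18, adjusted p = 0.00857), where without leucogen 2 the fold no longer passed the call's minimum. S100a6 had 229, 291 and 301 CPM in leucogen, 180, 187 and 137 in normal and 84.6, 209 and 79.5 in model. It was higher in leucogen than in normal by 0.72 (SE 0.14, adjusted p = 0.00192; with all 12 libraries in 1 fit, adjusted p = 0.292), and its 1.14 over model missed the threshold (adjusted p = 0.0642). S100a13 was called between leucogen and normal only (log2 fold change 0.95, adjusted p = 0.026), and the call was lost without normal 1 or any leucogen library (adjusted p up to 0.0922). S100a4 and S100a10 were not called between normal, model and leucogen, with means from 36.0 to 68.3 and from 94.5 to 166 CPM in the 4 groups.

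**Figure D4:**
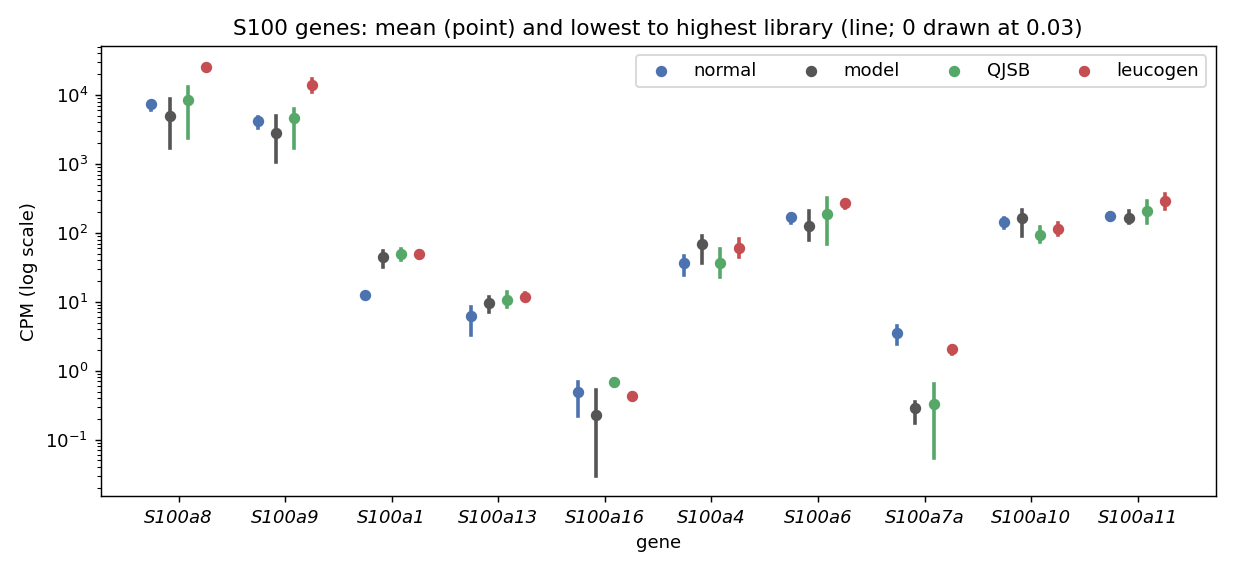
CPM (log axis) of S100a8, S100a9 and the S100 genes with counts enough for a test in at least 1 comparison of the 4 groups. Points are means of 3 mice and lines run from the lowest to the highest library, with 0 drawn at the foot. S100a8 and S100a9 lie above all others in each group, S100a1 is lowest in normal, and S100a7a is lower in model and QJSB than in normal and leucogen.

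The receptors and partners that calprotectin is known to bind did not move as a group. Of 11, 2 rose and 3 fell from normal to model (16.1% of all genes higher, 19.0% lower), 1 rose and 2 fell from model to leucogen (11.6% higher, 11.5% lower), and 5 rose and 2 fell from normal to leucogen (17.8% higher, 19.8% lower), with medians of -0.11, 0.28 and 0.18. From normal to QJSB 4 rose and 3 fell (18.0% of all genes higher, 19.9% lower), with a median of -0.39. From QJSB to leucogen 1 rose and 2 fell (11.7% higher, 12.9% lower), with a median of -0.17. None was called between model and QJSB (edgeR, 1 of 11 with an unadjusted p under 0.05; none called by DESeq2 or limma). Tlr4 had 75.7, 13.5 and 17.2 CPM in normal, 17.1, 27.4 and 119 in model, 71.9, 15.2 and 18.3 in QJSB and 28.4, 31.9 and 31.6 in leucogen. Single mice of the first 3 groups stood far above the others, and no comparison passed the test. Ly96, which encodes the Tlr4 partner MD-2, was at 4.31 to 6.39 CPM in the group means and was not called. Cd14, the co-receptor, had 12.9, 6.11 and 7.04 CPM in normal, 11.7, 16.9 and 13.4 in model, 17.2, 33 and 23.1 in QJSB and 14.4, 19.8 and 12.9 in leucogen. It was called between leucogen and normal (log2 fold change 0.88, edgeR adjusted p = 0.0365), which was lost without leucogen 1, leucogen 2, normal 2 or normal 3 (adjusted p up to 0.122). Ager, the gene of RAGE, had 2.97, 4.53 and 4.48 CPM in normal and 9.69, 9.06 and 8.54 in leucogen, a rise of 1.21 (SE 0.21, adjusted p = 0.000879) at a low level. Against model its 0.73 missed the threshold (adjusted p = 0.0531).

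Among the other partners, Cd33 was the only one that edgeR called higher in leucogen than in model. This sialic acid receptor of myeloid cells, known to bind S100A9, had 535, 516 and 577 CPM in normal, 142, 367 and 252 in model, 136, 555 and 509 in QJSB and 876, 844 and 829 in leucogen. In QJSB it did not exceed the highest normal library, whereas both calprotectin genes did in QJSB 2 and QJSB 3. It was higher in leucogen than in model by 1.75 (SE 0.31, edgeR adjusted p = 0.0074) and than in normal by 0.67 (SE 0.09, adjusted p = 0.000116; with all 12 libraries in 1 fit, adjusted p = 0.279). From normal to model it fell by 1.09 (adjusted p = 0.0255), a call lost without model 3 or any normal library (adjusted p up to 0.0882). Cd36, a scavenger receptor that takes up arachidonic acid carried by calprotectin and is also made by erythroid precursors, had 261, 268 and 274 CPM in normal and 5.76 to 20.1 in the 9 others. It fell by 4.29 in model (SE 0.41, adjusted p = 0.000271) and was lower in leucogen than in normal too (log2 fold change -5.34). Bsg, which encodes the receptor EMMPRIN and is likewise strong in red cell precursors, fell from 142 ± 9.93 CPM (SD, n = 3) in normal to 71.0 ± 27.5 in model and 35.3 ± 3.54 in leucogen (log2 fold change -1.99 against normal, SE 0.10, adjusted p = 3.01e-07). Its calls against model and of model against normal were lost with some libraries left out (adjusted p up to 0.113 and 0.0703). Erythroid markers, 9 genes, summed to 19370 ± 2131 CPM in normal and to 747 ± 923, 461 ± 204 and 360 ± 296 in model, QJSB and leucogen, and their part in the Cd36 and Bsg values was not tested.

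Lrp1, an endocytic receptor, rose from 108 ± 4.04 CPM (SD, n = 3) in normal to 445 ± 30.6 in model and 464 ± 38.6 in QJSB, and stood at 214 ± 27.8 in leucogen. It was lower in leucogen than in model by 1.05 on the log2 scale (SE 0.14, edgeR adjusted p = 0.00275), opposite to calprotectin, and this held with each library left out. Mcam, an adhesion molecule that binds the complex, rose from 1.24 ± 0.253 CPM to 10.1 ± 6.65 in model and 12.2 ± 2.98 in leucogen (log2 fold change 3.03 and 3.31, adjusted p = 0.0048 and 3.93e-06). Alcam and Nptn, the adhesion genes ALCAM and neuroplastin, were not called between normal, model and leucogen. Alcam was lower in QJSB than in normal (-0.78, edgeR adjusted p = 0.00253) and higher in leucogen than in QJSB (0.71, adjusted p = 0.00752). Both calls of Alcam held with each library left out.

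Of 10 known regulators of S100a8 and S100a9, 6 rose from normal to model (16.1% of all genes higher), with a median log2 fold change of 0.86. From normal to leucogen 8 rose (17.8% of all genes higher; 6 with DESeq2 and 7 with the replicate block), with a median of 0.79. Among the 8, the calls of Cebpb (0.70, edgeR adjusted p = 0.0472) and Cebpd (0.59, adjusted p = 0.00677) lay near the thresholds and were lost under most other settings, Cebpb also without leucogen 2, leucogen 3, normal 2 or normal 3 (adjusted p up to 0.198) and Cebpd without leucogen 1, leucogen 2 or normal 3. The 4 largest of the first were Gfi1, a transcriptional repressor (2.12, edgeR adjusted p = 0.00461), Cebpb (1.68, adjusted p = 0.00416), Cebpa (1.57, adjusted p = 0.000117) and Stat3 (0.90, adjusted p = 0.00362). Between model and leucogen, where calprotectin differed most, the median was -0.03 and 2 genes were called (11.6% of all genes higher, 11.5% lower): Cebpa fell (-0.79, adjusted p = 0.00938; lost without leucogen 3, adjusted p = 0.0568) and Cebpd rose just past the threshold (0.60, adjusted p = 0.048; lost in 5 of the 6 fits with a library left out). Cebpa had 19.6, 20.7 and 21.9 CPM in normal, 68.3, 51.3 and 64.0 in model, 67.7, 60.1 and 61.3 in QJSB and 34.4, 39.5 and 31.6 in leucogen. Its order of groups was that of the promyelocyte markers and not that of S100a8. Cebpe, which drives late granule genes, had 56.6 ± 4.12 CPM (SD, n = 3) in normal, 72.4 ± 26.2 in model, 125 ± 51.9 in QJSB and 116 ± 18.4 in leucogen (log2 fold change 1.05 against normal, adjusted p = 4.98e-05). Spi1, the gene of PU.1, went from 63.5 ± 0.310 CPM to 117 ± 33.3 in model and 109 ± 17.0 in leucogen (0.89 and 0.80, adjusted p = 0.00646 and 0.00019). From normal to QJSB 7 of the 10 rose (18.0% of all genes higher; also 7 with DESeq2 and with the replicate block), with a median of 1.19. Among these the call of Cebpe was lost without QJSB 2, QJSB 3 or any normal library (edgeR adjusted p up to 0.0654). Of the regulators 4 were lower in leucogen than in QJSB (24.6% of all genes called, 12.9% lower): Cebpb, Cebpa, Gfi1 and Rela. Cebpa was called with each library left out, while Cebpb and Rela were lost without leucogen 1 or leucogen 3 (adjusted p up to 0.0592 and 0.0814) and Gfi1 without leucogen 1, leucogen 2, QJSB 2 or QJSB 3 (adjusted p up to 0.0903) and with all 12 libraries in 1 fit (adjusted p = 0.0944). Between model and QJSB none was called (edgeR, 1 of 10 with an unadjusted p under 0.05; none by DESeq2 or limma), though all 10 values were above 0.

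Subunits of the phagocyte oxidase, which calprotectin helps to assemble, rose in part. Of 7 genes, which include the fatty acid carrier Fabp5, 3 rose from normal to model, 3 from model to leucogen and 5 from normal to leucogen (16.1%, 11.6% and 17.8% of all genes higher), with medians of 0.45, 0.58 and 0.86. The 5 were 4 with DESeq2 and with the replicate block. Among them the call of Rac2, a small GTPase of the oxidase (0.59, edgeR adjusted p = 0.00693), was lost in every other setting and without leucogen 2, normal 2 or normal 3. Cybb, the catalytic subunit, had 1366 ± 118 CPM (SD, n = 3) in normal, 1744 ± 512 in model, 2383 ± 1010 in QJSB and 3708 ± 567 in leucogen. It was higher in leucogen than in model by 1.10 (edgeR adjusted p = 0.0131; lost without leucogen 3, adjusted p = 0.0591), and than in normal by 1.46 (adjusted p = 8.01e-06). Ncf1, a cytosolic subunit, was also higher in leucogen than in model (0.98, adjusted p = 0.0278), a call that was lost without model 2 or any leucogen library (adjusted p up to 0.0902). From normal to QJSB 4 of the 7 rose (18.0% of all genes higher; 5 with DESeq2 and 3 with the replicate block), with a median of 1.18. Of these the call of Ncf1 was lost without QJSB 2, QJSB 3 or any normal library (edgeR adjusted p up to 0.106). That of Rac2 was lost without normal 2 (adjusted p = 0.0502). None of the 7 was called between model and QJSB (edgeR, 1 of 7 with an unadjusted p under 0.05; none by DESeq2 or limma).

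Other genes that withhold metals from microbes went different ways. Of 10 tested (Hpx was too low), 3 rose and 3 fell from normal to model (35.1% of all genes called), 2 rose and 2 fell from model to leucogen (23.1%), and 4 rose and 3 fell from normal to leucogen (37.7%), with medians of -0.15, -0.26 and 0.04. From normal to QJSB 2 rose and 2 fell (37.9% of all genes called), with a median of 0.32. From QJSB to leucogen none rose and 4 fell (12.9% of all genes lower), with a median of -0.59. Of these 4 calls only that of Ftl1 held with each library left out. Ltf, the lactoferrin of secondary granules, had 2428 ± 46.6 CPM (SD, n = 3) in normal, 877 ± 538 in model, 2573 ± 1832 in QJSB and 4505 ± 731 in leucogen. It was higher in leucogen than in model by 2.37 (edgeR adjusted p = 0.0161; lost without leucogen 3 or model 3, adjusted p up to 0.0648). Slc40a1, the iron exporter ferroportin, was higher by 1.18 (adjusted p = 0.00503). Lcn2, which binds the iron carriers of bacteria, was at 843 ± 485 CPM in model and 2075 ± 188 in leucogen and missed the threshold (1.31, adjusted p = 0.0823). Against normal Lcn2 was higher in leucogen by 0.87 (edgeR adjusted p = 9.38e-05; with all 12 libraries in 1 fit, adjusted p = 0.274). The ferritin gene Fth1 fell from normal to model by 1.52 (adjusted p = 0.00012) and Ftl1 was lower in leucogen than in model by 1.07 (adjusted p = 0.00553). Mt1, a zinc-binding metallothionein, rose by 2.77 from normal to model (adjusted p = 0.000474) and was 1.42 lower in leucogen than in model (adjusted p = 0.0434; lost in 4 of 6 fits with a library left out, adjusted p up to 0.145). None was called between model and QJSB by edgeR, DESeq2 or limma, and none of the 10 had an unadjusted p under 0.05 in edgeR, while with the replicate number as a block 1 was called, Ltf. Ltf and Lcn2 also stand in the late neutrophil list. Over all 5 of these lists, 14 of 45 genes tested were called between leucogen and model (23.1% of all genes), and 5 of the 14 were called with each library left out.

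Genes whose profile was most like that of the pair were ranked by the root mean square difference of log2 CPM, each gene centred on its mean over the 12 libraries, among 9470 other genes with a mean of at least 10 CPM. The other genes were measured against the mean profile of S100a8 and S100a9. These 2 genes differed from each other by 0.169. That value is not comparable with those of the other genes, since each of the 2 lies nearer to their mean than to the other. The closest were Gm17173, an antisense gene (0.174), Itgb2l, an integrin of neutrophils (0.188), Slfn4, a schlafen gene of myeloid cells (0.214), Wfdc21 (0.230), Syne1, a nuclear envelope gene (0.316), Pilrb2, a paired receptor (0.326), Dfna5, which encodes gasdermin E (0.335), and Card10 (0.342), where the median of all genes was 1.24. Slfn4 had 242 CPM in normal, 194 in model, 220 in QJSB and 867 in leucogen, and Itgb2l 78.3, 48.1, 93.8 and 234 (means of 3). Whether the counting used the strand is not given in the sources used here, so reads of Gm17173 cannot be told from those of a gene on the other strand.

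Part of this likeness is the step to leucogen. With each group centred on its own mean, only differences between mice of a group remain. The closest to the mean profile of the pair were then Anxa1 (0.0870), Slfn4 (0.113), Wfdc21 (0.124) and Ankrd22 (0.136). Next came 9830107B12Rik (0.139), Gm17173 (0.143), Itgb2l (0.169) and A530064D06Rik (0.180). The median gene was 0.694 from that mean profile, while S100a8 and S100a9 differed from each other by 0.163. Gm17173, Itgb2l, Slfn4 and Wfdc21 are in both lists. Anxa1, Itgb2l and Wfdc21 also belong to the late neutrophil markers, and Anxa1 had 2419, 3093, 4158 and 10528 CPM in normal, model, QJSB and leucogen. These rankings describe 12 libraries and carry no test.

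**Figure D5:**
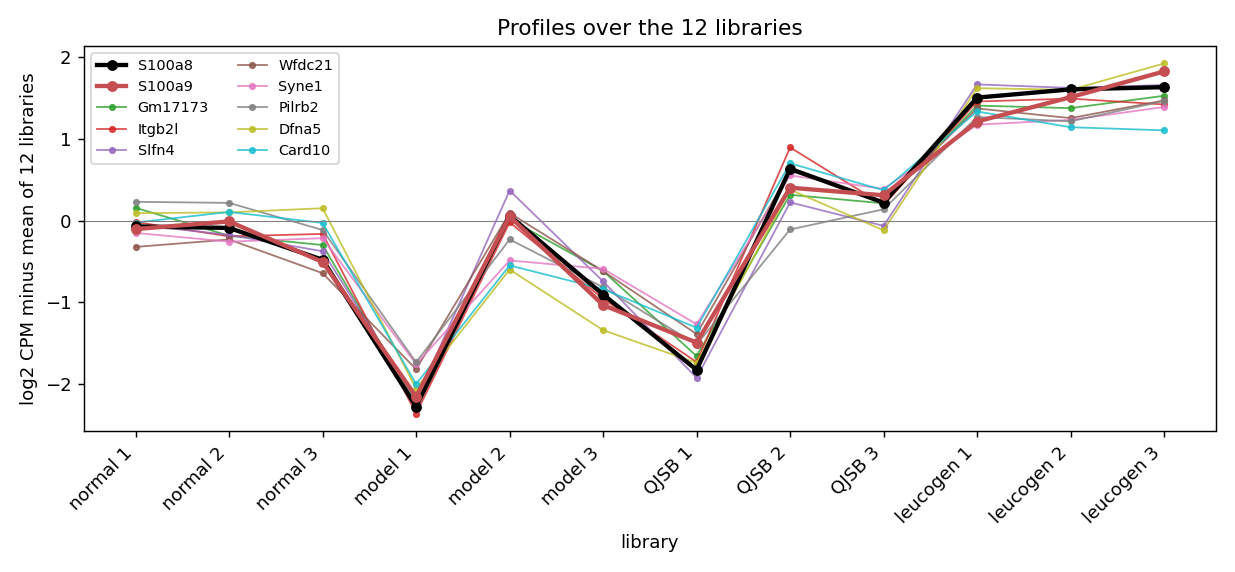
Log2 CPM of each gene minus its mean over the 12 libraries (linear axis) for S100a8, S100a9 and the 8 genes with the most similar profile. Lines join the libraries of a gene for reading only. The 10 genes are lowest in model 1 and highest in a leucogen library, with S100a8 and S100a9 0.169 apart on the log2 scale and the 8 genes within 0.342 of their mean.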

How the data were processed

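Per the labels and the study's methods, the authors depleted ribosomal RNA from total marrow RNA of 12 mice, prepared libraries that keep the strand, cleaned reads with Seqtk and used Hisat2 to align to GRCm38. The counter and annotation version are not given in the sources used here. The authors deposited 1 table with raw read counts and FPKM for each gene and library. No column of per-sample values was left unmapped. The column reading was checked against group means listed for 300 genes in each of 3 comparisons: the reading used matched all 300 within 1%, and no other matched over 10.

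Counts were tested as deposited with edgeR 4.0.16 (R 4.3.3; TMM, filterByExpr, robust quasi-likelihood) for each of 6 comparisons, on the 2 groups compared, with Benjamini-Hochberg adjustment over all genes tested. A gene was called at an adjusted p under 0.05 and a fold change over 1.5 in either direction. Comparisons with a group in common share its libraries. The edgeR p-values weigh a difference between groups against the spread between mice, which is estimated with information shared across genes. The SE of an edgeR log2 fold change is its absolute value divided by the square root of the quasi-likelihood F statistic. The ratio of S100a8 to S100a9 was tested with an exact permutation test. Alternatives were DESeq2 1.42.0 without a filter, limma 3.58.1 on log2(FPKM + 0.1), other scalings (one without the genes over 1% of a library), other filters, all 12 libraries in 1 fit, the replicate number as a block, and each library left out. Scripts were tested on simulated data.

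Replicate numbers are in the labels, which do not say what they share. Centred on group means over 15310 genes, model and QJSB libraries with the same number correlated at 0.426, 0.123 and 0.107, so the numbers were taken as pairs there, from the data alone. No other comparison had all 3 over 0.1, though leucogen and QJSB libraries correlated at 0.181, 0.134 and 0.0782. Likeness was measured on log2(CPM + 0.1).

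The members and lists were chosen with earlier results of these data known. Named were S100a8 and S100a9, the S100 and receptor genes tested, up to 4 called genes with the largest fold change of each other list and comparison, 8 genes most alike in each of 2 centrings, the genes with the most counts, and defining markers whose values stand beside a result. Lcn2, Cebpe and Spi1, which were called between leucogen and normal, and genes named for their gain in share were added after their values were seen. Values of 1 listed gene are not reported here.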

Additional observations from a re-analysis of the deposited data

How the results depend on the processing

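The S100a8 and S100a9 fold changes of leucogen against model, normal and QJSB kept their direction under every alternative run, while QJSB against normal turned below 0 with limma on FPKM (-0.09 and -0.03), with the replicate block and without QJSB 2, for S100a9 also without QJSB 3. The number of genes called moved most with leucogen 1 and leucogen 3: leucogen against model gave 3275 genes and from 1239 to 3953 with a library left out (1724 without leucogen 1 and 1239 without leucogen 3), and leucogen against QJSB 3511 and from 1544 to 3585 (2157 without leucogen 1, 1544 without leucogen 3). Model against normal gave 4136 to 5436, leucogen against normal 5233 to 5563 and QJSB against normal 4486 to 6151. QJSB against model gave 0 genes, 8 with DESeq2, 18 with the replicate block, and 0 to 3 with a library left out (3 without QJSB 1). With the replicate block, leucogen against QJSB gave 2 S100 genes in place of 1 (S100a7a and S100a4) and 2 oxidase genes in place of 0 (Cybb and Cyba; DESeq2 called 1, Cyba), and QJSB against model gave 1 metal-withholding gene in place of 0 (Ltf). For leucogen against model DESeq2 called 5 receptor genes in place of 3 and 4 regulators in place of 2. The cause of these changes was not tested. The ratio of S100a8 to S100a9 gave an exact permutation p = 0.922 with the replicate block, p = 0.882 on FPKM, and exact p from 0.389 to 0.957 with a library left out. The counts of 7 S100 genes were too low for a test in any comparison.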
